A study of Homo sapiens with 23 samples.

Results

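TMEM125, SOWAHB, EPS8L1, SMIM22 and TMPRSS4 were examined as a set of 5 genes of epithelial cells among the 21658 genes of the expression table. They were chosen by their change with resistance: the mean of the prexasertib-resistant libraries lay at least 2-fold below the mean of the parental libraries in each of 4 ovarian cancer cell lines. That difference is therefore given below as a description with no test. RNA-seq covered 23 libraries in 8 groups, the parental and the prexasertib-resistant culture of OV-90, Kuramochi, OVSAHO and EFO-21, with 3 libraries in each group except parental OV-90, which had 2. Prexasertib is an inhibitor of the checkpoint kinase CHK1, and each resistant culture was obtained by growing the parental line in rising drug concentrations over a long period. Each resistant line is 1 derived culture, so the spread between its libraries does not include the spread between separate derivations. The labels call the libraries biological replicates. All values are log2 expression after quantile normalisation, and read depth cannot be recovered from them.

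Epithelial cells are held together by tight and adherens junctions and are polarised, with transport to the apical and the lateral surface kept apart. Membrane-anchored serine proteases and their inhibitors act at these surfaces, and a small group of transcription and splicing factors keeps the epithelial programme on. Carcinoma cells can lose part of this programme and take on mesenchymal genes, a shift known as epithelial-mesenchymal transition. TMPRSS4 encodes a type II transmembrane serine protease, and EPS8L1 a relative of EPS8, an adaptor that links growth factor signalling to the actin cytoskeleton. SMIM22 encodes a very small membrane protein that was reported to bind squalene epoxidase, the product of SQLE. TMEM125 encodes a multi-pass membrane protein and SOWAHB an ankyrin repeat protein, and the function of both is poorly known.

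On GRCh37, the build of the deposited values, TMEM125 lies on the plus strand at chr1:43735654-43739673 and SOWAHB on the minus strand at chr4:77815305-77819297. EPS8L1 lies at chr19:55583388-55599291, SMIM22 at chr16:4838398-4846492 and TMPRSS4 at chr11:117947727-117992605, all on the plus strand. The 250 bases before an annotated RefSeq start are shown for 4 of the 5 genes, because the genes were low together and these windows let a reader see what their upstream sequence holds. They were taken from RefSeq promoters of GRCh38.p14 and placed on GRCh37 by an exact and single match at chr1:43735404-43735653, chr4:77819298-77819547, chr19:55586987-55587236 and chr16:4838148-4838397, in the order printed. Each is written 5′ to 3′ on the strand of its gene, and capitals mark the E-box CAGGTG or its reverse complement.
TMEM125: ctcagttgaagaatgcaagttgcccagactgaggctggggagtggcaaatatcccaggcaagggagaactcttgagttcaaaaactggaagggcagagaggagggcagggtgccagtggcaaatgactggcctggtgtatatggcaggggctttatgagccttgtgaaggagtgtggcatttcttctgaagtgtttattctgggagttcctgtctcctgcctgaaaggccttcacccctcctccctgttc
SOWAHB: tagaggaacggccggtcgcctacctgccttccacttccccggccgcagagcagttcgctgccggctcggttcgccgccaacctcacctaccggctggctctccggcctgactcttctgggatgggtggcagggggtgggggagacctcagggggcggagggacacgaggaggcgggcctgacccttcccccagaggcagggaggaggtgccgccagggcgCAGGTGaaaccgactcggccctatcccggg
EPS8L1: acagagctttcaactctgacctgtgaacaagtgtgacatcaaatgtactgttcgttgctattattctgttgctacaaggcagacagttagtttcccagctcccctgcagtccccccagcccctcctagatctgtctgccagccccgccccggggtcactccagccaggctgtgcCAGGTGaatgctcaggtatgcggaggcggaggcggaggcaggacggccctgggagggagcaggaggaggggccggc
SMIM22: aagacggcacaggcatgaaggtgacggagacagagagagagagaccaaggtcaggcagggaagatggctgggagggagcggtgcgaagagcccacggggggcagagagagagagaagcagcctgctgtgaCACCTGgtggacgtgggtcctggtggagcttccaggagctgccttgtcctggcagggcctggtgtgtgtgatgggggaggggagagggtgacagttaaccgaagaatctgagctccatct

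The E-box CAGGTG, the letters recognised by repressors of the ZEB and SNAI families, was found once each in the windows of SOWAHB, EPS8L1 and SMIM22, beginning 30, 76 and 120 bases before the start. No match stood in the TMEM125 window. On both strands, 17.5% of 34943 RefSeq windows of the same length hold these letters. The grainyhead motif AACCGGTT was in none of the 4 windows and in 0.114% of all windows, and the GC box GGGCGG was in the SOWAHB and EPS8L1 windows and in 42.5% of all windows. These motifs do not overlap one another in letters, and a match describes sequence only. The EPS8L1 window lies inside the annotated gene, which has an earlier start in the GENCODE annotation.

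Libraries of 1 group were close to each other, with Pearson correlations over genes of 0.95 to 0.99. The lowest of these joined the 2 parental OV-90 libraries, 892 of whose genes differed by at least 2 on the log2 scale. Both states of a line correlated at 0.89 to 0.96 and different lines at 0.62 to 0.81. The keratin genes KRT8 and KRT18 were at 8.67 or more in every library, and EPCAM was at 2.48 or more. OV-90 went against the ovarian label for PAX8, a Müllerian transcription factor. Its PAX8 means were 2.10 in parental and 1.95 in resistant cells, against 8.44 to 9.37 in the other parental lines. MSLN and MUC16 were at the bottom in OV-90 too. WT1 was at 1.03 in parental and 0.04 in resistant EFO-21, and at 1.87 and 1.83 in OV-90. Parental KRT7 was at 2.76 to 3.76 in all lines but OVSAHO, where it was at 11.4. Parental KRT19 was at 5.63 to 13.2, and parental MUC16 was at 2.48 in Kuramochi. The bottom is defined here as the lowest 10% of the genes of a library, which ended between 1.70 and 1.87, and a difference that reaches into it is not a measured fold change.

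TMPRSS4, the transmembrane protease, was the gene with the widest range between lines. Its parental values were 7.79 and 7.60 in OV-90, 6.59, 6.63 and 6.67 in EFO-21, and 4.94, 4.99 and 5.13 in OVSAHO. Its resistant values were 5.44, 5.42 and 5.48 in OV-90, 4.06, 4.22 and 3.95 in EFO-21, and 0.63, 0.25 and 0.71 in OVSAHO. Every resistant library thus lay below every parental library of its line, and in OVSAHO the resistant cells had reached the bottom. The differences of the means were -2.25 in OV-90, -2.55 in EFO-21 and -4.49 in OVSAHO. Kuramochi stood apart, since its parental values of 1.26, 1.45 and 2.19 were already at or near the bottom, and its resistant values were 0.20, -0.16 and -0.16. The Kuramochi difference of -1.67 met the 2-fold rule, but 2 of its 3 parental libraries and all 3 resistant ones were among the lowest 10% of genes.

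EPS8L1, the EPS8 relative, was lower in all resistant cultures and at the bottom in 1 of them. In Kuramochi its parental values were 6.22, 6.62 and 6.51 and its resistant values 0.63, 0.70 and 0.72. In OVSAHO the parental libraries gave 6.70, 6.73 and 6.64 and the resistant ones 3.97, 3.81 and 3.62. These groups were separated by wide gaps, 5.51 in Kuramochi and 2.66 in OVSAHO between the nearest libraries of both states. In OV-90 the values were 7.90 and 7.58 against 6.05, 6.20 and 6.07. In EFO-21 they were 3.88, 3.93 and 3.88 against 2.13, 2.06 and 1.76. The differences of the means were -5.77 in Kuramochi, -2.89 in OVSAHO, -1.91 in EFO-21 and -1.64 in OV-90, and resistant Kuramochi ended among the lowest 10% of genes.

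SMIM22, the small membrane protein, ended at the bottom in every resistant library of 3 lines. In EFO-21 its parental values of 5.17, 5.41 and 5.38 stood against 1.19, 1.08 and 1.17. In Kuramochi 5.79, 6.71 and 7.01 stood against 0.29, 1.58 and 0.35. For OVSAHO, 3.67, 3.22 and 3.24 stood against 1.05, 0.91 and 0.93. The resistant OV-90 libraries, at 2.20, 2.00 and 2.15, were just above the bottom, while the parental OV-90 libraries were 5.76 and 4.07 with the largest SD, 1.20, of any group of these 5 genes. Differences of the means were -5.77 in Kuramochi, -4.17 in EFO-21, -2.80 in OV-90 and -2.41 in OVSAHO. The OV-90 difference was -1.95 without the first parental library and -3.64 without the second.

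TMEM125, the multi-pass membrane protein, kept a clear level in 2 of the resistant cultures. It read 7.89 and 7.58 in parental OV-90 against 6.14, 6.21 and 6.21 in resistant OV-90, and 7.56, 7.42 and 7.54 in parental OVSAHO against 5.83, 5.80 and 6.38. In Kuramochi the parental values 5.75, 5.62 and 5.91 stood against 2.18, 2.09 and 1.75, the largest difference of the 4 lines at -3.75. In EFO-21 the gene was low from the start, at 3.43, 3.90 and 4.17 in parental and 2.50, 1.97 and 2.76 in resistant cells. Outside Kuramochi the differences were alike in size, -1.55 in OV-90, -1.50 in OVSAHO and -1.42 in EFO-21, or 2.92-fold, 2.83-fold and 2.68-fold lower. EBNA1BP2, a nucleolar protein gene on the opposite strand, overlaps TMEM125, and the sources used here do not say whether the counting used strand. EBNA1BP2 was far higher, at 8.85 to 10.5 in group means, and differed between states by -0.58 in OV-90, -0.15 in Kuramochi, -0.08 in OVSAHO and -0.68 in EFO-21.

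SOWAHB, the ankyrin repeat gene, had the smallest mean difference over the 4 lines, -1.74. Its values were 7.84 and 8.33 in parental OV-90 against 6.96, 7.18 and 6.91 in resistant OV-90. In EFO-21, 5.86, 6.28 and 5.48 stood against 3.88, 4.38 and 4.48. Resistant OV-90 therefore kept more SOWAHB than any other parental line held. In OVSAHO 5.57, 5.14 and 4.60 stood against 2.90, 3.31 and 2.83, and in Kuramochi 4.75, 4.33 and 4.16 against 1.21, 2.40 and 3.11. The differences were -1.07, -1.62, -2.09 and -2.18 in OV-90, EFO-21, OVSAHO and Kuramochi. The OV-90 value was nearest to the 2-fold limit, and it was -0.82 without the second parental library. SOWAHB is measured from a single exon feature, and its values are a mean of log2 where those of the other 4 genes come from the authors' robust linear model.

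Across the 20 combinations of gene and line, no resistant library reached the level of a parental library of its line. The gap between the nearest libraries ran from 0.66 for SOWAHB in OV-90 to 5.51 for EPS8L1 in Kuramochi. The rule favours such gaps, so they only describe the chosen genes, and the share of all genes without overlap is not given. Of all genes, the share called lower by the test described below was 6.56% in OV-90, 10.6% in Kuramochi, 3.83% in OVSAHO and 7.15% in EFO-21, and since the rule used this contrast nothing is read from the comparison. In all, 33 genes, or 0.152% of the table, met the rule of a 2-fold lower mean in all 4 lines, and 20 of these had a mean above the median gene level of 5.81 in at least 1 group. Just inside the limit stood TNN, with a smallest difference of -1.02, and KRT8P31, with -1.01. Just outside stood SNORD3C and PHOX2A, with -0.996 and -0.987. The opposite pattern, a 2-fold higher mean in all 4 lines, was met by 29 genes.

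**Figure D1:**
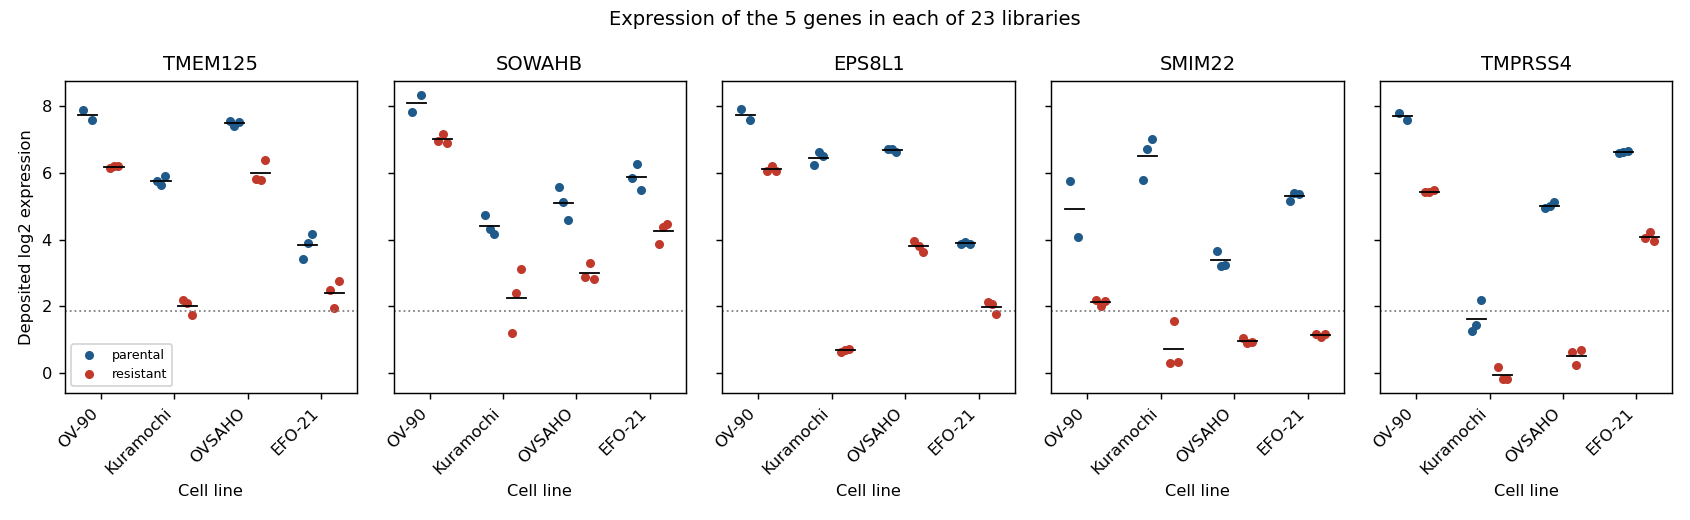
Deposited log2 expression (vertical axis) of each of the 5 genes in all 23 libraries, by cell line (horizontal axis), with parental libraries in blue, resistant libraries in red and the group mean as a black bar. The dotted line at 1.87 is the highest value that bounds the lowest 10% of genes in a library, and TMPRSS4 in Kuramochi begins at that line. The red points lie below the blue points in all 20 pairs of groups, a separation that the rule of choice favours.

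The parental levels of the 5 genes differed between lines, which the rule did not use. Differences of parental means were tested with limma on 8 group means and called at a Benjamini-Hochberg adjusted p under 0.05 and at least 2-fold, and 25 of 30 gene and line-pair combinations were called. Parental lines differed in many genes, so this share has to be read against the share of all genes called. That share was 47.9% for OV-90 against Kuramochi, where 5 of 5 members were called, and 48.9% and 51.0% for OV-90 against OVSAHO and EFO-21, with 4 of 5 in both. For Kuramochi it was 38.3% against OVSAHO, with 3 of 5 members, and 41.9% against EFO-21, with 5 of 5. For OVSAHO against EFO-21 it was 44.9%, with 4 of 5.

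TMPRSS4 was the only one of the 5 called in all 6 pairs of lines, in the order OV-90 at 7.69 ± 0.13 (SD, n = 2), EFO-21 at 6.63 ± 0.04 (SD, n = 3), OVSAHO at 5.02 ± 0.10 and Kuramochi at 1.63 ± 0.49. Between parental OV-90 and parental Kuramochi it differed by 6.06 ± 0.22 (SE), with an adjusted p of 1.99e-14 by limma. Since 2 of the 3 parental Kuramochi libraries were at the bottom for TMPRSS4, its differences from Kuramochi are not measured fold changes. TMEM125 was highest in OV-90 at 7.74 ± 0.22 and OVSAHO at 7.50 ± 0.08, which did not differ beyond their spread, followed by Kuramochi at 5.76 ± 0.14 and EFO-21 at 3.83 ± 0.37. EPS8L1 followed a like order, with OV-90 at 7.74 ± 0.23, then OVSAHO at 6.69 ± 0.05 and Kuramochi at 6.45 ± 0.20, which were not called different, and EFO-21 at 3.90 ± 0.03. SOWAHB was highest in OV-90 at 8.09 ± 0.35. Its next levels, EFO-21 at 5.87 ± 0.40, OVSAHO at 5.10 ± 0.49 and Kuramochi at 4.42 ± 0.30, differed only between EFO-21 and Kuramochi. SMIM22 had another order, with Kuramochi at 6.50 ± 0.64 above EFO-21 at 5.32 ± 0.13 and OV-90 at 4.92 ± 1.20, which were not called different, and OVSAHO lowest at 3.38 ± 0.26. In the resistant cultures the highest mean of each of the 5 genes was that of OV-90, from 2.12 for SMIM22 to 7.02 for SOWAHB.

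The wider epithelial programme was followed with 41 other epithelial genes, in lists of regulators, junction and polarity genes, and surface and trafficking genes. Resistant and parental libraries of each line were compared with limma over all genes, with calls at an adjusted p under 0.05 and at least 2-fold. In Kuramochi 26 of the 41 fell and 2 rose, with a median difference of -1.67. In OVSAHO 12 fell and 1 rose, with a median of -0.69. In OV-90 9 fell and 2 rose, with a median of -0.40, and in EFO-21 9 fell and 2 rose, with a median of -0.21. The median over all genes was between -0.06 and 0.01 in these comparisons. Of all genes, 6.56% were called lower in OV-90, 10.6% in Kuramochi, 3.83% in OVSAHO and 7.15% in EFO-21. The shares called higher were 9.5%, 11.8%, 3.93% and 7.11% in the same order. None of the 41 fell in all 4 lines, 7 fell in 3 lines, 10 in 2 lines, 15 in 1 line and 9 in none. In the average over lines, with the line as a block, 17 fell and 0 rose against 3.2% and 2.9% of all genes, and the median was -0.84. This fit treats libraries as replicates, although each line gave 1 resistant culture, and assumes 1 change shared by the lines. A call in the average can rest mostly on 1 line. LSR differed by -4.46 in Kuramochi, -0.31 in OV-90, -0.73 in OVSAHO and -0.12 in EFO-21. DSP was called lower in the average although it rose by 1.81 in OV-90.

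The OV-90 calls, which rest on 2 parental libraries, changed in number when libraries were left out. The 3 resistant OV-90 libraries correlated at 0.98 with each other. The counts fell alike whichever of them was left out, which leaves 2 libraries against 2. Without any one of the 3 resistant OV-90 libraries the count of epithelial genes called lower went from 9 to 1, and the count called higher went from 2 to 0. The OV-90 calls named below for EHF, KLF5, S100A14, TMPRSS3, EPS8L2, SOS1, SOWAHC, ZEB1 and TWIST1 were lost in the same way. Leaving out a parental library leaves 1 in that group. The spread then comes from the resistant libraries alone, so no count is given for that setting. The cause of the drop in calls was not tested. Of 35 OV-90 calls among all genes followed here, 28 were lost when some library was left out, against 7 of 80 in Kuramochi, 9 of 45 in OVSAHO and 6 of 37 in EFO-21, and no called difference changed sign. A fall that ends under 1.87 has a size set by the bottom of the range. Among others this holds for EHF, ESRP1, ST14, PRSS8, CDH1, SCNN1A and RBP4 in Kuramochi. It also holds for ST14, RBP4 and SCEL in OVSAHO and for ESRP1 in EFO-21.

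**Figure D2:**
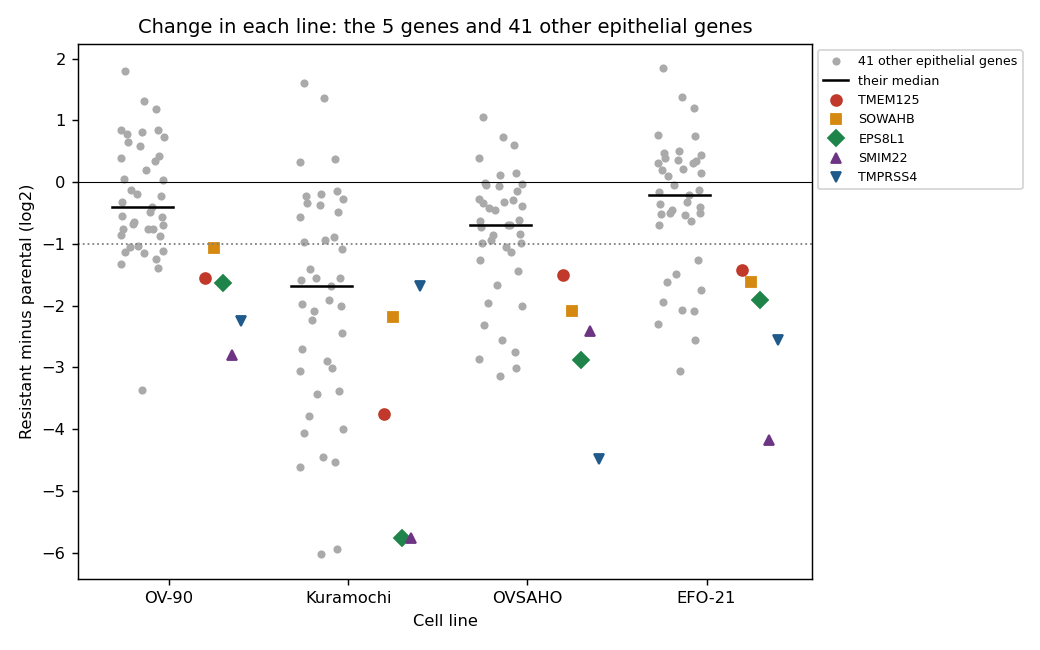
Resistant minus parental difference of the group means (vertical axis, log2) in each cell line (horizontal axis) for the 5 genes, as coloured symbols, and for 41 other epithelial genes, as grey points with their median as a black line. The dotted line marks the 2-fold limit by which the 5 genes were chosen; the grey medians run from -1.67 in Kuramochi to -0.21 in EFO-21.

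Among the epithelial regulators, EHF, an ETS transcription factor of epithelia, fell by 4.07 ± 0.22 (SE) on the log2 scale in Kuramochi and fell by 2.31 in OVSAHO. EHF also fell by 1.33 in OV-90 (adjusted p = 0.0258 by limma), and its EFO-21 difference of -0.36 was below the 2-fold limit. ESRP1 and ESRP2, the splicing factors that set epithelial exon choice, had differences of -2.55 and -2.30 in EFO-21 and of -2.24 and -2.09 in Kuramochi, all called lower. In OVSAHO neither was called, with differences of -0.61 for ESRP1 and -0.46 for ESRP2. The parental OVSAHO mean of ESRP1, 1.10, was already at the bottom, while that of ESRP2 was 7.60. The fall of ESRP2 by 1.15 in OV-90 was lost whichever of the 5 libraries was left out. Other regulators rose, KLF5 by 1.19 in OV-90 and GRHL1 by 1.06 in OVSAHO, and were named after their values were seen.

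Among the junction genes, EPCAM, the epithelial adhesion molecule, went from 6.47 to 2.69 in Kuramochi and from 8.83 to 5.82 in OVSAHO, with differences of -3.78 and -3.01. In OV-90 EPCAM was at 12.3 in both states, a difference of 0.03, and in EFO-21 the difference was -0.21. CLDN4, a tight junction claudin, fell by 4.61 in Kuramochi and fell by 2.86 in OVSAHO, with -0.69 and -0.41 in OV-90 and EFO-21. CLDN7, another claudin, fell in Kuramochi, OVSAHO and EFO-21, with differences of -4.00, -2.56 and -1.48, while its OV-90 difference was 0.59 and did not pass the test. CDH1, the gene of E-cadherin, was singled out after its values were seen: it fell by 3.00 in Kuramochi, fell by 1.67 in OVSAHO and rose by 1.39 in EFO-21. PKP3, singled out in the same way, rose by 1.60 in Kuramochi, from 0.67 at the bottom, and fell in OVSAHO and EFO-21.

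Of the surface and trafficking genes, VAMP8, a SNARE of endosomes and secretory granules, fell by 6.03 in Kuramochi. Its differences in OV-90, OVSAHO and EFO-21 were -0.87, -0.85 and -0.32. S100A14, a calcium-binding protein of epithelia, fell in OV-90, Kuramochi and OVSAHO, with differences of -1.24, -3.06 and -2.76. AP1M2, the epithelial subunit of a clathrin adaptor that sorts cargo to the basolateral surface, fell by 3.14 in OVSAHO and was called in no other line. Among genes named after their values were seen, EPN3 fell by 5.95 in Kuramochi and rose by 1.85 in EFO-21. PROM2 rose by 1.36 in Kuramochi.

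Members of the TMPRSS4 family were measured for 8 of 17 listed genes. In Kuramochi 4 fell and 1 rose, in OV-90 1 fell and 1 rose, and in OVSAHO and EFO-21 1 fell. Of all genes 6.56%, 3.83% and 7.15% were called lower in OV-90, OVSAHO and EFO-21, so 1 of 8 is near the background there, and the Kuramochi share was 10.6%. ST14, the gene of matriptase, fell in Kuramochi from 5.73 to 0.77, in OVSAHO from 4.08 to 0.52 and in EFO-21 from 6.74 to 5.28. In OV-90 it went from 9.03 to 8.56, a difference of -0.48. TMPRSS3, a protease of the inner ear and other epithelia, fell by 1.37 in OV-90 and fell by 2.66 in Kuramochi. TMPRSS2, known for priming viral spike proteins, was called in Kuramochi alone, where it fell by 1.42 from a parental mean of 1.72 that was already at the bottom. TMPRSS15, the gene of enteropeptidase, rose by 2.83 in OV-90 and fell by 3.47 in Kuramochi. HPN, the gene of hepsin, rose by 1.17 in Kuramochi, from 0.54 to 1.71, within the bottom of the range. For TMPRSS5, TMPRSS6 and TMPRSS9 there was no call in any of the 4 lines, where their differences ran from -1.96 to 1.39.

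Inhibitors, substrates and partners of these proteases were also counted. Of 9 measured genes, 4 fell and 1 rose in OV-90, 5 fell and 1 rose in Kuramochi, and 3 fell and 0 rose in both OVSAHO and EFO-21. The shares of all genes called lower were 6.56% in OV-90, 10.6% in Kuramochi, 3.83% in OVSAHO and 7.15% in EFO-21. Those called higher were 9.5%, 11.8%, 3.93% and 7.11%. PRSS8, the gene of prostasin, which acts in a cascade with matriptase, fell from 6.12 to 2.30 in OVSAHO and from 3.06 to 0.50 in Kuramochi. SPINT1 and SPINT2 encode the inhibitors HAI-1 and HAI-2 that hold matriptase and prostasin in check. SPINT1 fell in 3 lines, with differences of -1.03 in OV-90, -2.59 in Kuramochi and -1.79 in OVSAHO. SPINT2 fell by 3.90 in Kuramochi and fell by 1.53 in EFO-21. SCNN1A, the alpha subunit of the epithelial sodium channel that membrane proteases cleave, fell in 3 lines, with differences of -1.82 in OV-90, -2.26 in Kuramochi and -1.16 in OVSAHO, against -0.62 in EFO-21. PRSS22, another membrane-bound serine protease, fell by 1.24 in OV-90, a call lost without any one resistant library or the first parental one. In EFO-21 PRSS22 fell by 1.82, from 1.88 at the edge of the bottom to 0.05 within it. The urokinase gene PLAU rose by 1.74 in Kuramochi, and its receptor gene PLAUR fell by 1.13 in OV-90.

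Of 10 relatives and partners of EPS8L1 0 fell and 2 rose in OV-90, 2 fell and 1 rose in Kuramochi, and 1 fell and 1 rose in both OVSAHO and EFO-21, while none was called in the average over lines. The shares of all genes called were 3.83% to 10.6% lower and 3.93% to 11.8% higher in the 4 lines, so these counts are near the background. EPS8 itself rose in Kuramochi from 2.80 to 6.31 and in OVSAHO from 3.18 to 4.24, and it fell in EFO-21 from 4.31 to 2.16. EPS8L1 was lower in each of these lines. EPS8L2 rose by 1.01 in OV-90 and EPS8L3 was called in no line. The actin bundler gene ESPN fell by 3.79 in Kuramochi, fell by 1.43 in OVSAHO and rose by 1.31 in EFO-21. EZR, the gene of ezrin, which ties membranes to actin, fell by 1.04 in Kuramochi. SOS1, the exchange factor that EPS8 complexes recruit together with ABI1, rose by 1.09 in OV-90, and ABI1 was called in no line.

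Among the relatives of SOWAHB, SOWAHA fell by 4.32 in Kuramochi, from 7.25 to 2.93. SOWAHD rose there by 3.16, and SOWAHC rose in OV-90 by 1.42. No SOWAH relative was called in OVSAHO or EFO-21. SQLE, whose product SMIM22 was reported to bind, was called in no line, with differences of 0.47 in OV-90, -0.57 in Kuramochi, 0.32 in OVSAHO and -0.39 in EFO-21.

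**Figure D3:**
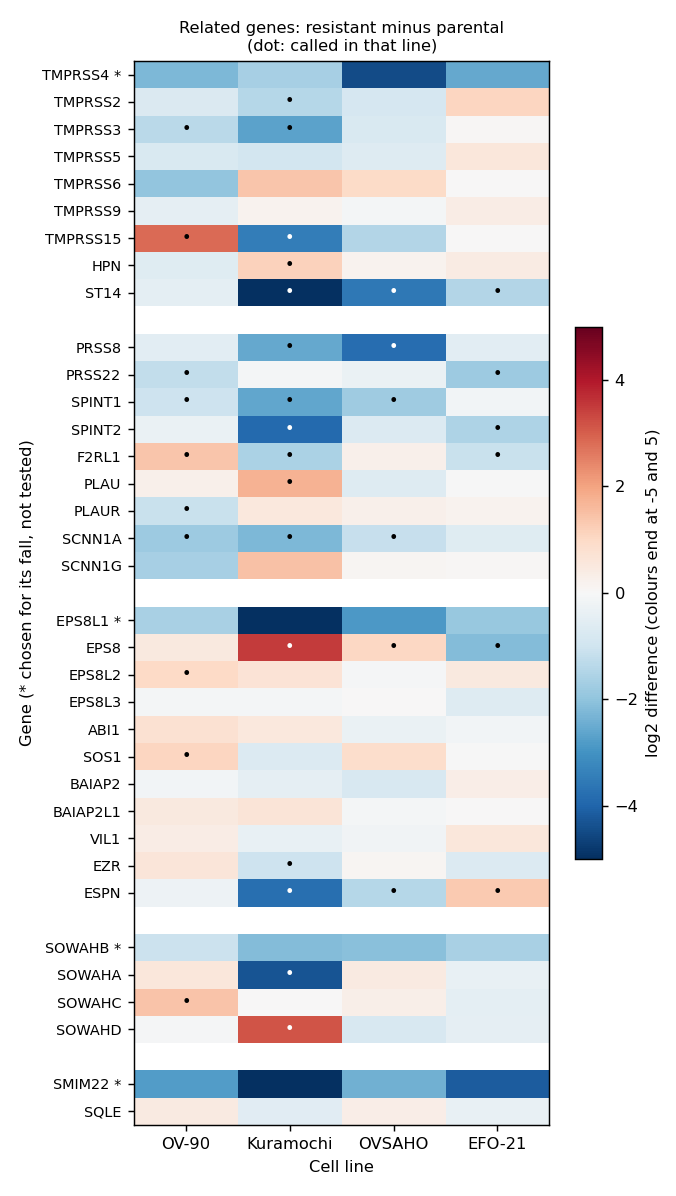
Resistant minus parental difference (colour, log2, red higher and blue lower, with colours ending at -5 and 5) for relatives and partners of the 5 genes (rows, in blocks) in each cell line (columns). A dot marks a gene called in that line, and starred rows are the chosen genes, which were not tested. The rows of ST14, SPINT1 and SCNN1A carry 3 dots each, all of them falls. Those of F2RL1, EPS8 and ESPN also carry 3 dots each, with falls and rises in different lines.

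Mesenchymal genes were followed as the counterpart of the epithelial lists. Of 13 measured genes 7 rose in Kuramochi, 5 in OVSAHO, 3 in EFO-21 and 2 in OV-90, and 1, TWIST1, fell, in OV-90. The shares of all genes called higher were 11.8%, 3.93%, 7.11% and 9.5% in the same order, and 6.56% were called lower in OV-90. FN1, the gene of fibronectin, rose in all 4 lines, by 1.78 in OV-90, 2.78 in Kuramochi, 1.53 in OVSAHO and 1.07 in EFO-21. The OV-90 call of FN1 was lost without any one resistant library. AXL, a receptor tyrosine kinase, rose by 2.26 in Kuramochi and 1.57 in OVSAHO, and TWIST2, a repressor of epithelial genes, rose by 4.16 and 1.33 in the same lines. Of the genes whose products bind the E-box, ZEB1 rose by 1.60 in OV-90 and by 1.02 in OVSAHO, ZEB2 rose by 1.48 in Kuramochi, and SNAI1 rose by 1.12 in Kuramochi and 1.48 in EFO-21. TWIST1, which also binds E-boxes, fell by 2.02 in OV-90 and was called in no other line. ZEB2 differed by -1.04 in OV-90, which did not pass the test, and SNAI2 was called in no line. These genes were named after their values were seen. Markers of ovarian carcinoma and of other cell types were counted beside these lists. Of 9 measured ovarian carcinoma markers 5 fell and 0 rose in Kuramochi, and 4 fell and 0 rose in OVSAHO. In EFO-21 0 fell and 1 rose, and none was called in OV-90. Of 6 immune markers 3 fell and 0 rose in OVSAHO, 1 fell and 2 rose in Kuramochi, 1 fell and 1 rose in EFO-21, and none was called in OV-90. Of 5 endothelial markers 1 fell and 1 rose in OV-90, 2 fell and 1 rose in Kuramochi, 1 rose in OVSAHO and 1 fell in EFO-21. Of 6 fibroblast markers 3 fell and 2 rose in Kuramochi, 2 fell and 2 rose in OVSAHO, and none was called in the other lines. Beside these marker counts, 3.83% to 10.6% of all genes were called lower and 3.93% to 11.8% higher in the 4 lines. For each list the level was also summed in each library and put on the log2 scale. In Kuramochi the immune sum was 6.34 to 6.89 in parental and 7.73 to 8.03 in resistant libraries, and in EFO-21 it was 8.97 to 9.15 and 9.88 to 9.99. In OVSAHO it was 7.56 to 8.05 in parental and 6.77 to 6.90 in resistant libraries, and in OV-90 7.52 to 8.18 and 7.66 to 7.69. The immune sums of both states overlapped in OV-90 and in no other line. In OVSAHO the fibroblast sum was 5.37 to 5.58 in parental and 7.50 to 7.78 in resistant libraries, while in Kuramochi it was 10.56 to 10.95 and 8.95 to 9.10. The fibroblast sum was 12.4 to 13.3 and 12.1 to 12.3 in OV-90, and 6.29 to 6.48 and 6.75 to 6.87 in EFO-21. The endothelial sum was 6.50 to 6.95 in parental and 7.78 to 8.04 in resistant Kuramochi, and 3.07 to 3.52 and 3.74 to 3.90 in OVSAHO. It was 6.58 to 6.60 and 6.51 to 6.73 in OV-90, and 9.81 to 9.90 and 9.97 to 10.1 in EFO-21. Single markers were high in some lines, with parental means of 12.8 for LUM in OV-90, 10.6 for COL3A1 in Kuramochi and 9.11 for CDH5 and 8.48 for PECAM1 in EFO-21, and CD68 reached 9.82. Others were low, since PTPRC was at most 4.65, and PECAM1 was at the bottom in 12 libraries and COL3A1 in 9. The part of these markers in the results was not tested.

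Genes whose pattern was most like that of the 5 were sought by centring each gene in each line and correlating it with the mean of the 5 over the 23 libraries. The libraries fall into parental and resistant clusters that all these genes share, so the correlations describe mainly that split. KRT18, the gene of a simple epithelial keratin, came first, with r = 0.98. KRT18 fell by 1.13 in Kuramochi, and its differences of -0.69, -0.81 and -0.75 in OV-90, OVSAHO and EFO-21 were under the 2-fold limit. KRT17, a keratin of basal and stressed epithelia, had r = 0.97 and fell in 3 lines, with differences of -5.33 in Kuramochi, -4.00 in OVSAHO and -2.66 in EFO-21. Its OV-90 difference of -2.11 did not pass the test, with a parental mean there of 4.32 ± 2.13 (SD, n = 2). FABP5, an epidermal fatty acid binding protein gene, had r = 0.97 and fell in 3 lines, with differences of -1.21 in OV-90, -1.996 in Kuramochi and -1.69 in OVSAHO. SCEL, the gene of sciellin in cornified envelopes, had r = 0.96 and fell in 3 lines, with differences of -4.10 in Kuramochi, -1.76 in OVSAHO and -2.35 in EFO-21. The other 6 of the 10 were KRT8, GRAMD1A and the pseudogenes FABP5P7, FABP5P2, KRT8P3 and KRT18P38, whose reads cannot be told apart with certainty from those of their parent genes. With Spearman correlations 1 of the 10 remained, and KLK7 and ST14 were among the first 3. Between the 5 genes themselves, centred in the same way, r ran from 0.73 for TMEM125 and TMPRSS4 to 0.97 for TMEM125 and EPS8L1. The rule gave each of them the same split between states in every line, so nothing is read from these values.

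**Figure D4:**
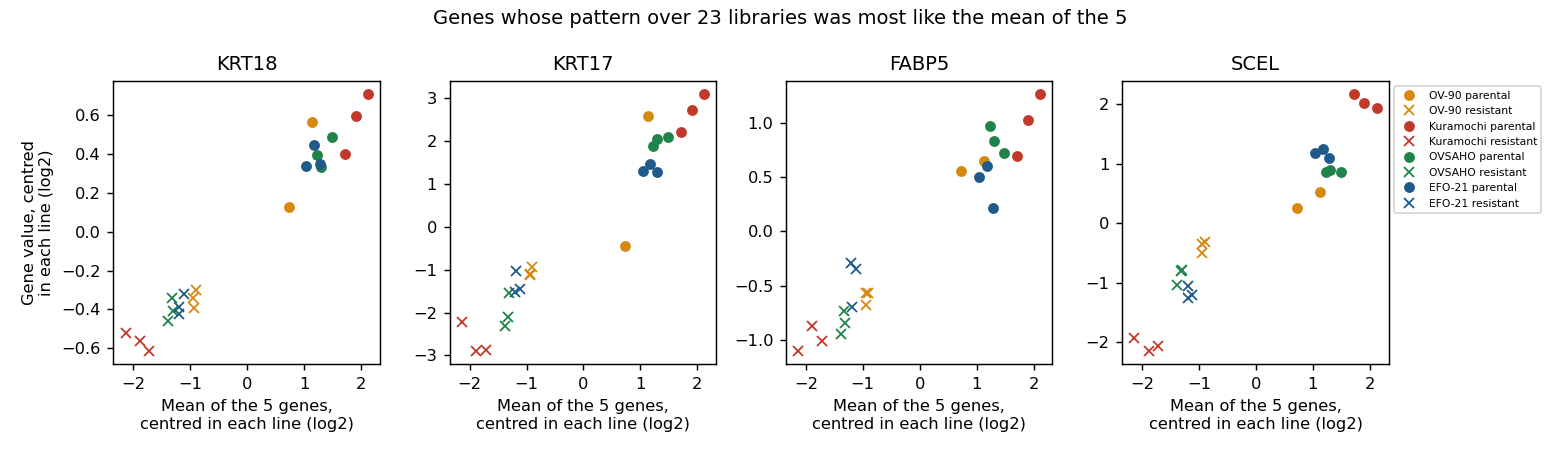
Values of KRT18, KRT17, FABP5 and SCEL (vertical axes) against the mean of the 5 genes (horizontal axes) in 23 libraries, all centred in each line on the log2 scale, with parental libraries as circles and resistant libraries as crosses in the colour of their line. Circles and crosses form separate clusters in each panel, and Kuramochi lies at both ends; r is 0.98 for KRT18 and 0.96 for SCEL.

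Outside the 5 chosen genes, whose differences are not tested here, 8 genes were called lower in all 4 lines. RBP4, a carrier of retinol, fell in the 4 lines, with differences of -1.30 in OV-90, -2.60 in Kuramochi, -3.03 in OVSAHO and -2.69 in EFO-21. LHX1, a homeobox transcription factor, had differences of -1.05, -2.23, -1.58 and -1.16 in the same order. For MAB21L4 the differences were -1.18, -1.29, -2.71 and -1.15, and its parental means of 1.75 in OV-90 and 1.60 in Kuramochi were at the bottom. RBP4 ended at or near the bottom, with resistant means of 0.25 in Kuramochi and 1.76 in OVSAHO. The other 5 were the pseudogenes KRT18P20, KRT18P28, KRT18P39, FABP5P2 and MT1DP, whose reads may come in part from KRT18, FABP5 and metallothionein genes. The OV-90 calls of 7 of the 8, all but FABP5P2, were lost without any one resistant library.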

How the data were processed

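Total RNA of the 23 libraries was made into stranded mRNA libraries and sequenced by the authors, who aligned reads to GRCh37/hg19 with GSNP, dropped exons that over 80% of samples covered with under 10 reads, fitted a robust linear model to exon and junction reads and quantile-normalised each sample. The deposited values are log2 expression per gene. Of 21658 genes, 16448 came from that model and 5210 from a mean of log2. The values hold no counts, so depth and its precision are unknown. Exon number and exon weight, other numbers in the table, were read only for the members. Gene IDs were matched to RefSeq symbols for 20745 genes, and positions came from GENCODE on GRCh37. Groups came from the labels.

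Resistant and parental libraries were compared in each line with limma 3.58.1 (R 4.3.3), with a mean-variance trend, two-sided, Benjamini-Hochberg adjustment over all genes, no filter and no pseudocount. Calls needed an adjusted p under 0.05 and a 2-fold change. Other fits used the line as a block, or 8 group means for parental pairs and for differences between lines. The fits were tested on simulated data. The members and gene lists were chosen with earlier results of these data known. Named genes are the members, up to 3 largest called falls and rises per list, all protease, EPS8 and SOWAH relatives, the 10 most alike genes, genes called lower in all lines, those at the 2-fold limit and the neighbours. Alternatives were all libraries in 1 fit, no trend, a filter at the 25th percentile, recentring, other fold limits and leaving out each library. Promoter windows were the 250 bases before a RefSeq start. With 3 libraries against 3, or 2 against 3, an exact permutation test cannot go below 0.1.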

Additional observations from a re-analysis of the deposited data

Results flagged for a closer look

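Among the relatives of the 5 genes, 4 were called in opposite directions in different lines. They were picked for those calls, so the difference between the changes of the lines is given from the same libraries as a description, with its SE from a limma fit of 8 group means, and it was not tested on other data. EPS8, the actin adaptor, fell in EFO-21 and rose in Kuramochi, and the change in EFO-21 minus the change in Kuramochi was -5.66 ± 0.24 (SE). ESPN, the actin bundler, fell in Kuramochi and rose in EFO-21, a difference of -5.10 ± 0.29. TMPRSS15, the gene of enteropeptidase, fell in Kuramochi and rose in OV-90, a difference of -6.30 ± 0.54. F2RL1, the gene of the protease-activated receptor PAR2, fell by 1.58 in Kuramochi and rose by 1.37 in OV-90, a difference of -2.95 ± 0.47. F2RL1 also fell by 1.11 in EFO-21, a call kept whichever library was left out. Its change in EFO-21 minus its change in OV-90 was -2.48 ± 0.47 (SE). The OV-90 and Kuramochi calls of F2RL1 were lost when some libraries were left out. In OV-90 this was any one resistant library or the first parental one, and in Kuramochi 1 resistant or any one parental library.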

How the results depend on the processing

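No paired analysis was possible because the columns carry no replicate number. Depth is unknown, low values are bounded by the bottom of the range, and each resistant line is 1 culture. All 5 genes kept a lower resistant mean in every line under recentring, medians and each left-out library, and 19 to 20 of 20 differences were at least 2-fold when libraries were left out. Counts of epithelial genes moved with the fold limit. At 1.5-fold the counts called lower were 14 in OV-90 and 20 in OVSAHO, and the counts called higher were 4 in OV-90 and 4 in EFO-21. With no fold limit the lower counts were 16 in OV-90, 24 in OVSAHO and 19 in EFO-21, and the higher counts were 4 in OV-90, 9 in EFO-21 and 1 in the average. Without a trend OV-90 had 1 called higher. The filter on low values, which tests fewer genes and keeps 3 of the 5 members, left 1 called higher in Kuramochi, 0 in OVSAHO and 1 in EFO-21, and 14 calls of parental levels between lines. Leaving out single libraries gave 1 to 10 lower and 0 to 7 higher in OV-90, 25 to 27 and 2 in Kuramochi, 11 to 13 and 0 to 2 in OVSAHO, 9 to 10 and 2 to 3 in EFO-21, 14 to 17 and 0 in the average, and 23 to 26 calls of parental levels. Spearman correlations shared 1 of the 10 most alike genes and parental centring shared 8. The cause was not tested for the trend and the correlation. No result changed direction.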

Other observations

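The 2 nearest measured protein-coding genes on each side of each of the 5 genes gave 20 neighbours. Over the 4 lines 9 of the 80 neighbour comparisons were called lower and 5 higher, with a median difference of -0.13. Of all genes 3.83% to 10.6% were called lower and 3.93% to 11.8% higher in the 4 lines. By line, 1 neighbour of 20 fell in OV-90, 6 in Kuramochi, 1 in OVSAHO and 1 in EFO-21. The shares of all genes called lower there were 6.56%, 10.6%, 3.83% and 7.15%. Of the 20, 1 rose in OVSAHO and 4 in EFO-21, against 3.93% and 7.11% of all genes. The falls in Kuramochi and the rises in EFO-21 were thus above the share of all genes, and the cause was not tested. C1orf210, 7875 bases after TMEM125, fell by 2.78 in OVSAHO and fell by 1.62 in EFO-21. It differed by 0.06 in Kuramochi, the line in which TMEM125 differed most. RDH13, 729 bases before EPS8L1, and PPP1R12C, 2991 bases after it, were called in no line, and neither was ROGDI, 477 bases after SMIM22. SHROOM3, a regulator of apical constriction in epithelia, before SOWAHB, fell by 2.12 in Kuramochi. TIE1, an endothelial receptor gene after TMEM125, fell by 4.65 in Kuramochi. Near TMPRSS4, IL10RA fell by 4.88 in OV-90, a call that was lost without any one resistant library, and FXYD6 fell by 2.08 in Kuramochi and rose by 2.59 in OVSAHO.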
